A study of Mus musculus with 7 samples.

Results

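Chemokines and their receptors were described in sorted bone marrow progenitors of pMT-10 mice, which overexpress interleukin-10 (IL-10), and of control mice. The members were taken by gene symbol, as Ccl, Cxcl, Ccr or Cxcr followed by digits only, together with Cx3cl1, Cx3cr1, Xcl1, Xcr1, Ackr2 and Ackr3, which gave 53 of the 23930 genes in the tables, 33 ligands and 20 receptors. Ackr1 was not analysed here. Their expression was read by targeted RNA sequencing (Ion AmpliSeq), which amplifies a short stretch of each transcript, so that a read count per gene is the measurement and levels of different genes are not compared with each other.

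The series held 7 libraries in 4 groups, all from bone marrow cells purified by flow sorting of mice that had drunk zinc in their water over 15 days. Common myeloid progenitors (CMPs), ancestors of myeloid, red and platelet-forming cells, were sorted from pMT-10 mice (2 libraries) and from C57BL/6 (BL/6) mice (2 libraries). Cells with the LSK profile (no lineage markers, SCA-1+ and c-KIT+) and with the surface pattern CD150+CD48+ came from pMT-10 mice (2 libraries), as did haematopoietic stem cells (HSC, 1 library). In the pMT-10 strain the Il10 transgene is driven by a metallothionein promoter that zinc induces, and the BL/6 controls drank zinc too, so zinc is common to all groups. The BL/6 CMPs are the single control group, and LSK or HSC of BL/6 mice were not analysed here. How CMPs and HSC were gated is not given, and nothing in the labels says whether replicate libraries stem from different mice. P-values therefore measure the spread among these samples, which may be technical.

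Chemokines are small secreted proteins that guide cell migration by binding receptors of the seven-helix, G protein-coupled kind, and they are grouped by the spacing of their N-terminal cysteines into the CC, CXC, CX3C and XC classes. Several ligands share a receptor and several receptors share a ligand. Cxcl9, Cxcl10 and Cxcl11 bind Cxcr3 and are known as products of cells exposed to interferon, whereas Cxcr4 and its ligand Cxcl12 are known for holding haematopoietic stem and progenitor cells in the marrow.

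Library totals ran from 7372430 to 13854314 counts. The floor used for a library at 0 is 3 counts, which is 0.216 to 0.397 CPM, a unit in which counts are scaled by the library's total. The pMT-10 CMPs shared 1 sequencing chip with the LSK CD150+CD48+ cells and the BL/6 CMPs shared the other with the HSC, so chip and group cannot be told apart in any comparison other than LSK CD150+CD48+ cells against CMPs. The Y-linked gene Ddx3y had 197 and 320 counts in the pMT-10 CMPs, 364 and 1040 in the LSK CD150+CD48+ libraries and 370 in the HSC library, but 0 in both BL/6 CMP libraries, so the CMP groups differed in the share of male cells as well. Xist, read from the inactive X of female cells, had 11904 and 8140 counts in the pMT-10 CMPs, 2431 and 2 in the LSK CD150+CD48+ libraries, 959 in the HSC library and 9308 and 8745 in the BL/6 CMPs. The makeup by sex therefore differed between LSK CD150+CD48+ cells and CMPs too, and between the 2 LSK CD150+CD48+ libraries, and its part in the results was not tested. Il10 itself had 0 to 2 counts in every library, so these cells gave no reading of the transgene. Of the sort markers, Ly6a (SCA-1) had 2785 and 3458 counts in the LSK CD150+CD48+ libraries and 2502 in the HSC library, against 176 and 242 in pMT-10 CMPs and 1 and 25 in BL/6 CMPs. Cd48 had 49 counts in the HSC and 544 and 563 in the LSK CD150+CD48+ cells. Between the CMP groups, 3 of 8 sort markers tested were higher in pMT-10 and 2 lower (edgeR, adjusted p under 0.05). The log2 fold changes were 4.41 for Ly6a, 2.44 for Fcgr3 and 1.69 for Cd48, against -1.29 for Kit and -0.85 for Slamf1 (CD150). Whether the 2 CMP groups held like cells was not tested. In bulk samples such as these, fewer cells that express a gene and less RNA per cell cannot be told apart.

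Most of the family was silent. Of the 53 genes, 37 stayed under 10 counts in every library, or 69.8% of them against 51.7% of all genes in the tables, and 14 of the 37 had 0 counts in all 7 libraries. At least 10 counts in some library were reached by 11 of 33 ligands and 5 of 20 receptors. The silent CC ligands were Ccl1, Ccl4, Ccl7, Ccl8, Ccl11, Ccl12, Ccl20, Ccl22, Ccl24, Ccl26 and Ccl28, and the silent CXC ligands were Cxcl1, Cxcl2, Cxcl3, Cxcl5, Cxcl12, Cxcl13, Cxcl14, Cxcl15, Cxcl16 and Cxcl17. Every CC receptor except Ccr2 was silent, and so were Cxcr3, Cxcr5, Cxcr6, Xcl1, Xcr1, Ackr2 and Ackr3. The highest count of any silent gene was 7, for Ccr1. At this depth such genes are at or near the floor, which does not show that they are absent.

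Members less than 1 Mb apart on mm10 (GENCODE M21 positions) were taken as a cluster, which placed 35 of the 53 genes in 9 clusters. All 3 genes of the Cxcl9, Cxcl10 and Cxcl11 cluster on chromosome 5 (92321347 to 92365485) were detected. In the other large CXC cluster of that chromosome (90759360 to 90905938), which holds the neutrophil attractants Cxcl1, Cxcl2, Cxcl3, Cxcl5 and Cxcl15, 0 of 5 were. The CXC chemokines Pf4 and Ppbp, which the symbol rule leaves out, also lie there and were detected. On chromosome 11, 4 of 5 genes of the cluster of Ccl5, Ccl9, Ccl6, Ccl3 and Ccl4 (83525778 to 83664683) were detected, against 1 of 6, the monocyte attractant Ccl2, in the neighbouring cluster (82035571 to 82305690).

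**Figure D1:**
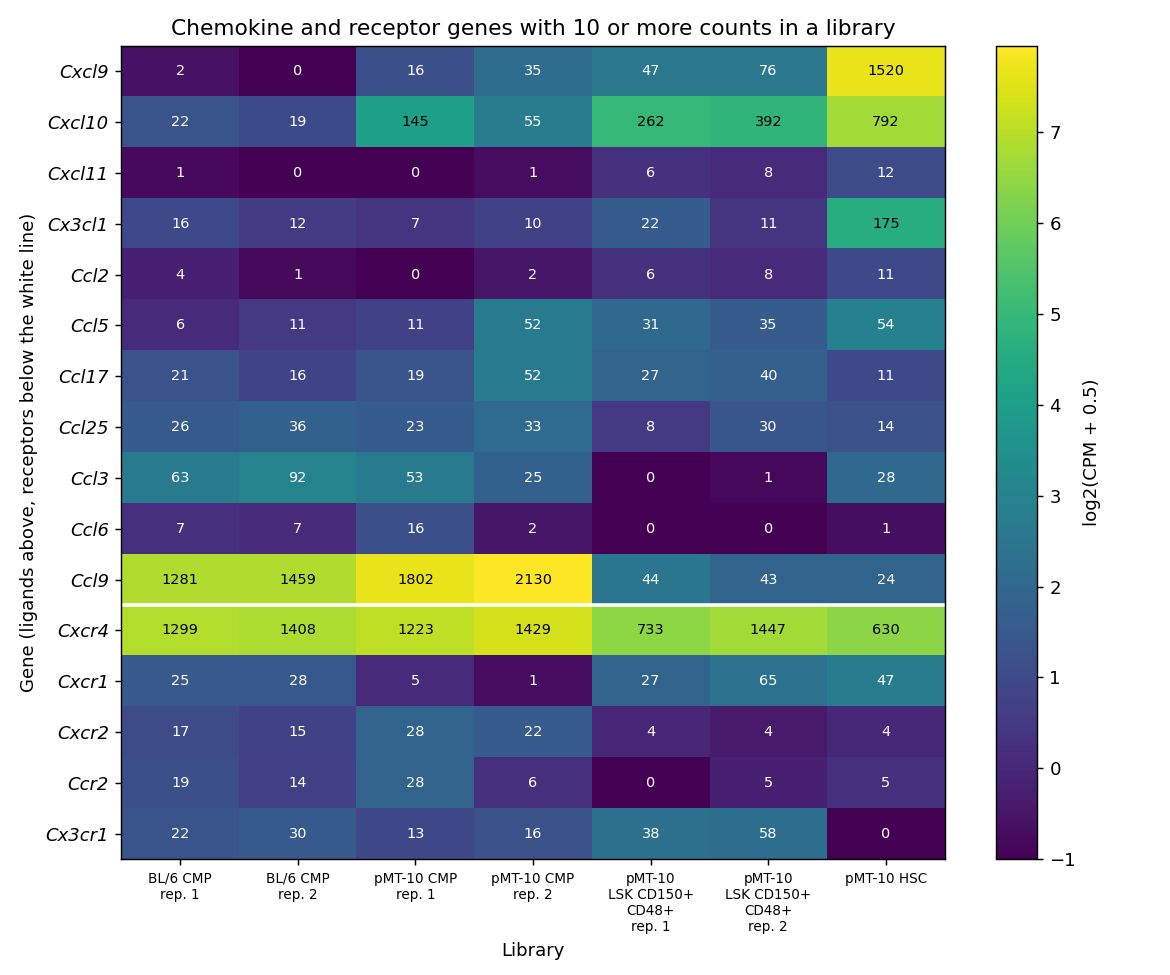
Counts of the 16 genes that reached 10 counts in a library (rows, with ligands above and receptors below the white line) in the 7 libraries (columns). Colour is log2(CPM + 0.5) and the printed number is the raw count; Cxcl9 stands at 1520 in the HSC library and at 0 to 76 elsewhere, and Ccl9 at 1281 to 2130 in the CMPs and at 24 to 44 in the other libraries.

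All 16 detected genes had enough counts to be tested, and the other 37 could not be tested. In pMT-10 against BL/6 CMPs, 4 of the 16 were higher and 1 was lower (edgeR quasi-likelihood test, adjusted p under 0.05), where 14.3% of all 11429 genes tested were higher and 13.7% lower. In LSK CD150+CD48+ cells against pMT-10 CMPs, 2 were higher and 3 lower, beside 5.92% and 5.92% of all genes. In HSC against LSK CD150+CD48+ cells, 4 were higher and 1 lower, beside 10.6% and 8.15%. In HSC against pMT-10 CMPs, 5 were higher and 3 lower, beside 13.8% and 11.7%. The comparisons share groups and so are not independent of each other. Because a gene could pass the filter through the group in which it is high, these counts describe the detected genes and not the family.

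Of the 3 ligands of Cxcr3, Cxcl9 and Cxcl10 were higher in pMT-10 than in BL/6 CMPs, and all 3 had their highest level in the HSC library. Cxcl9 had 2 and 0 counts in the BL/6 CMPs, 16 and 35 in the pMT-10 CMPs, 47 and 76 in the LSK CD150+CD48+ libraries and 1520 in the HSC library. The CPM of the 4 groups did not overlap, and the HSC library stood far above the rest. In CPM, Cxcl9 was 0.0923 ± 0.131 (SD, n = 2) in BL/6 CMPs, 2.91 ± 1.62 (n = 2) in pMT-10 CMPs, 5.48 ± 0.0179 (n = 2) in the LSK CD150+CD48+ libraries and 201 in the HSC library, with an exact 95% Poisson interval of 191 to 211 for counting error only. Cxcl9 rose in pMT-10 against BL/6 CMPs, with a log2 fold change of 4.88 ± 0.79 (SE) and an adjusted p of 0.00319 by edgeR. Since the BL/6 group rests on 2 counts, its ratio of 33.5 has an exact 95% counting interval of 8.80 to 284. Cxcl9 rose again in HSC against LSK CD150+CD48+ cells, by 5.20 ± 0.42 (adjusted p 0.000397), and against CMPs, by 6.11 ± 0.44 (adjusted p 0.000176). The difference from CMPs to LSK CD150+CD48+ cells, a log2 difference of 0.92 ± 0.41, did not pass the test (adjusted p 0.167); leaving out pMT-10 CMP replicate 2 gave 1.63, which passed (adjusted p 0.00806). The rise over BL/6 passed whichever library was left out, with a log2 value of 3.89 without BL/6 CMP replicate 2 and 4.18 without pMT-10 CMP replicate 2. Without BL/6 CMP replicate 1 the control is at 0 counts, so the fit gives no fold (adjusted p 0.0137). Against CMPs, the HSC value was 6.82 without pMT-10 CMP replicate 2.

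Cxcl10, the second interferon-responsive ligand of Cxcr3, followed the same order. It had 22 and 19 counts in the BL/6 CMPs, 145 and 55 in the pMT-10 CMPs, 262 and 392 in the LSK CD150+CD48+ libraries and 792 in the HSC library. The groups did not overlap in CPM, although the pMT-10 CMP pair lay far apart. The levels were 1.78 ± 0.351 CPM (SD, n = 2) in BL/6 CMPs, 11.2 ± 6.80 (n = 2) in pMT-10 CMPs, 29.4 ± 1.71 (n = 2) in the LSK CD150+CD48+ libraries and 104.7 in the HSC library (counting interval 97.6 to 112). Cxcl10 rose in pMT-10 against BL/6 CMPs by a log2 fold change of 2.65 ± 0.44 (adjusted p 0.00396), and by 1.84 without pMT-10 CMP replicate 1. It rose in LSK CD150+CD48+ cells against CMPs by 1.39 ± 0.37 (adjusted p 0.0424), in HSC against LSK CD150+CD48+ cells by 1.83 ± 0.41 (adjusted p 0.0172) and in HSC against CMPs by 3.22 ± 0.43 (adjusted p 0.00147). Leaving out pMT-10 CMP replicate 1 gave differences from CMPs of 2.20 for LSK CD150+CD48+ cells and 4.04 for HSC. The call in LSK CD150+CD48+ cells against CMPs was lost without LSK CD150+CD48+ replicate 1 or 2 (adjusted p 0.236 and 0.195), without BL/6 CMP replicate 1 or 2 (0.0828 and 0.079), without the HSC library (0.0516) and with only the 2 groups in the fit (0.0921). The call in HSC against LSK CD150+CD48+ cells was lost without LSK CD150+CD48+ replicate 1 or 2 (0.132 and 0.133).

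Cxcl11, annotated in GENCODE M21 as a polymorphic pseudogene of the mouse, stayed low. Its counts were 1 and 0 in BL/6 CMPs, 0 and 1 in pMT-10 CMPs, 6 and 8 in the LSK CD150+CD48+ libraries and 12 in the HSC library. The CMP libraries of both strains overlapped and were under the floor, and the LSK CD150+CD48+ and HSC libraries were above it. HSC exceeded pMT-10 CMPs by a log2 fold change of 4.54 ± 1.53 (adjusted p 0.0459), a ratio of 28.1 with an exact 95% counting interval of 4.16 to 1201. That call was lost without any of LSK CD150+CD48+ replicates 1 and 2 (adjusted p 0.104 and 0.102), BL/6 CMP replicates 1 and 2 (0.0797 and 0.0785) or pMT-10 CMP replicate 1 (3.64, 0.0502). It passed without pMT-10 CMP replicate 2 (0.0183), when the CMP group is at 0 counts. It was lost with a replicate block (adjusted p 0.0664) and in DESeq2 (0.125) as well. The gene Art3 lies over Cxcl10 and Cxcl11 on the opposite strand, and whether the authors counted by strand is not given. Art3 had 0 to 24 counts in the 7 libraries.

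Markers of cells known to make Cxcr3 ligands or interferon-γ were read beside these values. Of 14 T and NK cell markers 4 reached 10 counts, with Cd3d and Ncr1 at 0 throughout, and their summed level was 188 to 251 CPM in pMT-10 CMPs, 78.5 to 82.9 in BL/6 CMPs, 278 to 362 in the LSK CD150+CD48+ libraries and 124 in the HSC library. Nkg7 made up most of that sum, at 157 to 220 CPM in pMT-10 CMPs, 264 to 346 in the LSK CD150+CD48+ libraries and 97.7 in the HSC library. In pMT-10 against BL/6 CMPs, Gzmb (3.75, adjusted p 0.00063), Nkg7 (1.35, adjusted p 0.00376) and Thy1 (1.38, adjusted p 0.014) were higher. Klrb1c did not pass there (-0.56, adjusted p 0.765). Against LSK CD150+CD48+ cells, Klrb1c (5.08, adjusted p 0.0145) and Thy1 (2.43, adjusted p 0.00422) were higher in HSC. Nkg7 (-1.64, adjusted p 0.00692) and Gzmb (-2.37, adjusted p 0.00984) were lower. Of 11 monocyte and macrophage markers measured 4 reached 10 counts, with C1qc at 0 throughout, and their sum was 167 to 192 CPM in pMT-10 CMPs, 75.1 to 85.3 in BL/6 CMPs, 75.4 to 95.6 in the LSK CD150+CD48+ libraries and 345 in the HSC library. The HSC sum was mostly Lyz2, at 319 CPM, which was higher in HSC than in LSK CD150+CD48+ cells by 2.02 (adjusted p 0.00134) and than in CMPs by 1.35 (adjusted p 0.00482). Ms4a6c was higher in HSC than in LSK CD150+CD48+ cells by 1.72 (adjusted p 0.0127) but lower than in pMT-10 CMPs by -1.16 (adjusted p 0.0466). Ctss had 37 counts in the HSC and 0 in both LSK CD150+CD48+ libraries (adjusted p 0.00281), and did not differ from CMPs (0.22, adjusted p 0.811). Csf1r had 0 counts in the HSC and 51 and 36 in pMT-10 CMPs (adjusted p 0.00514). Between the CMP groups, Ms4a6c (2.37, adjusted p 0.00183), Lyz2 (0.88, adjusted p 0.0125) and Ctss (1.78, adjusted p 0.0379) were higher in pMT-10. Csf1r missed the threshold there (1.49, adjusted p 0.0544). Of 11 markers of stroma and endothelium 5 reached 10 counts, with Col1a1 at 0 throughout, and their sum was 54.0 to 83.0 CPM in pMT-10 CMPs, 77.5 to 78.6 in BL/6 CMPs, 67.7 to 76.9 in the LSK CD150+CD48+ libraries and 63.8 in the HSC library. The part of other cells in the levels of the Cxcr3 ligands was not tested.

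**Figure D2:**
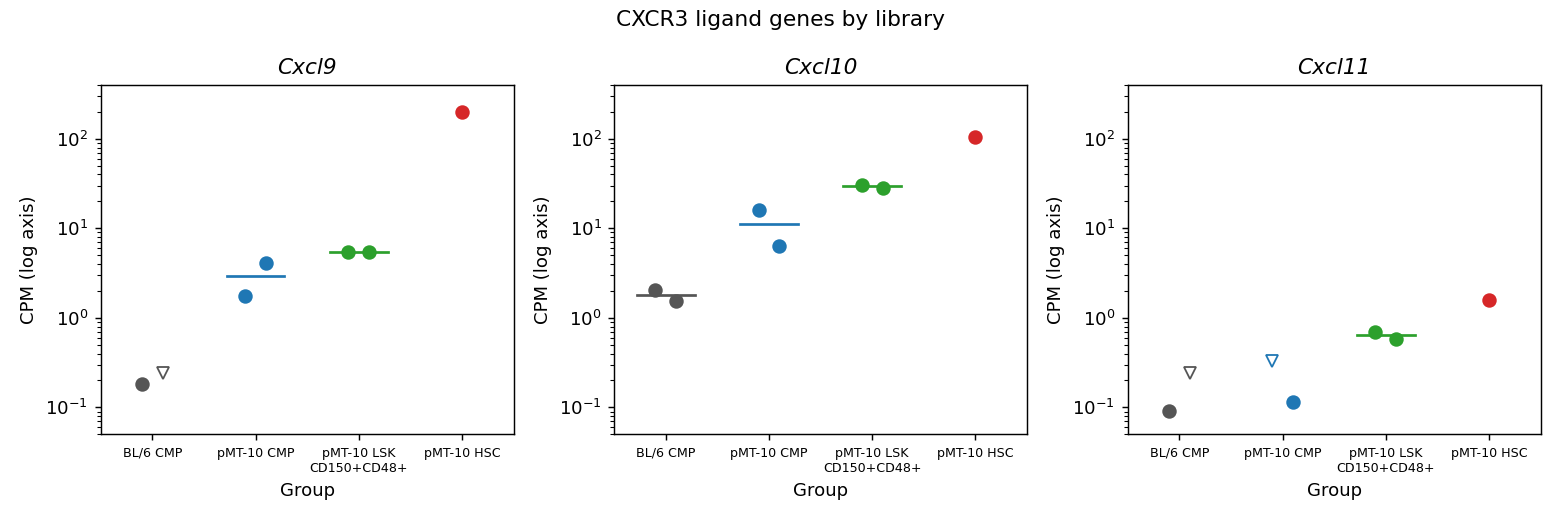
CPM on a log axis of Cxcl9, Cxcl10 and Cxcl11 in each library, by group; points are libraries, lines are means of groups whose libraries all had counts, and open triangles mark libraries with 0 counts at the 3-count floor. Cxcl10 climbs from 1.78 CPM in BL/6 CMPs to 104.7 in the HSC, and Cxcl9 from 0.0923 to 201.

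The 250 bases before the start sites of Cxcl9 and Cxcl10, and of Ccl9 for contrast, are shown because the first 2 ligands were higher and Ccl9 lower in HSC than in CMPs. They were taken from RefSeq (GRCm38.p6), are written 5′ to 3′ on the gene's own strand, which is the minus strand for all 3, and end at the base before the start site. Capitals mark matches to the motifs searched.

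Cxcl9, chr5:92328080-92328329, minus strand: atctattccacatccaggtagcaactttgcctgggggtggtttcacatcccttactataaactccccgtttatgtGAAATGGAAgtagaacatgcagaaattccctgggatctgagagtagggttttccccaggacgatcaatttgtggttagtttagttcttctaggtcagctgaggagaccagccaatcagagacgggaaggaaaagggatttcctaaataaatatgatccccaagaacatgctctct
Cxcl10, chr5:92348890-92349139, minus strand: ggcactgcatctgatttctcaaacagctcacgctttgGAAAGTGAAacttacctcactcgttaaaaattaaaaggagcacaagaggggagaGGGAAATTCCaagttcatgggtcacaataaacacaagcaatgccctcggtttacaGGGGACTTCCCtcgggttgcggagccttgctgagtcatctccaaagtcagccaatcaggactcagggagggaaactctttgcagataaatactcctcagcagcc
Ccl9, chr11:83578637-83578886, minus strand: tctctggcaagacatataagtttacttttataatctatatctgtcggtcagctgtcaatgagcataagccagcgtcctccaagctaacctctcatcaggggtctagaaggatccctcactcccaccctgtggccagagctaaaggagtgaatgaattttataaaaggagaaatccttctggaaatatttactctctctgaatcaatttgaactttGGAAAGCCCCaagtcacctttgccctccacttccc

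Each promoter was searched on both strands for GAAANNGAA (the core of the interferon-stimulated response element), TTCNNNGAA (the core of the interferon-γ-activated site) and the NF-κB consensus, whose matches can overlap each other. RefSeq held a promoter for 38 of the 53 genes, 13 of them among the 16 detected. A member gene was counted once if any of its promoters matched, whereas the shares over all are per promoter. The gene counts and these shares are therefore unlike measures. GAAANNGAA was found in 7 of the 38 (Cxcl9, Cxcl10, Ccl3, Ccr2, Cxcr1 and the silent Ccl1 and Cxcl14) and in 7.13% of all 32851 promoters. It lay at -175 to -167 from the start site in Cxcl9 and at -213 to -205 in Cxcl10, and the Ccl9 window held none. TTCNNNGAA was found in 3, namely Ccl17, Ccr6 and Cxcl14, and in 7.02% of all promoters. The NF-κB consensus was found in 11 of the 38, of which Cxcl10 and Ccl9 were detected, and in 7.25% of all promoters. In Cxcl10 it lay at -159 to -150 and at 2 overlapping places from -104 to -94, in Ccl9 at -35 to -26 on the other strand, and the Cxcl9 window held none. A match is a run of letters and was not tested as a binding site. The windows shown were picked by the levels of these genes, so they cannot test a link between matches and level.

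Cx3cl1, the transmembrane ligand of Cx3cr1 that is known from endothelium and neurons, stood out in the HSC library alone. It had 16 and 12 counts in BL/6 CMPs, 7 and 10 in pMT-10 CMPs, 22 and 11 in the LSK CD150+CD48+ libraries and 175 in the HSC library. The other 6 libraries overlapped between groups, and the HSC library lay above them all, at 23.2 CPM (counting interval 19.8 to 26.8). Cx3cl1 was higher in HSC than in LSK CD150+CD48+ cells by a log2 fold change of 3.85 ± 0.61 (adjusted p 0.00465) and than in CMPs by 4.57 ± 0.65 (adjusted p 0.00195). The first was 4.85 without LSK CD150+CD48+ replicate 1 and 3.16 without replicate 2, and passed in both. Emcn, from the list of stroma and endothelium markers, was also highest in the HSC library. It had 24 and 31 counts in BL/6 CMPs and 7 and 16 in pMT-10 CMPs. The LSK CD150+CD48+ libraries had 6 and 7 and the HSC library 132. Emcn was higher in HSC than in LSK CD150+CD48+ cells by 4.87 ± 0.59 (adjusted p 0.00151) and than in CMPs by 3.73 ± 0.55 (adjusted p 0.00233), whereas Cdh5 had at most 1 count in any library. Members of the list of stroma and endothelium markers went both ways in the HSC. Pdgfrb was lower in HSC than in LSK CD150+CD48+ cells by -2.08 (adjusted p 0.00604) and than in CMPs by -2.49 (adjusted p 0.00212). Tek was higher in HSC than in CMPs (1.496, adjusted p 0.0106) but not than in LSK CD150+CD48+ cells (0.196, adjusted p 0.693). Kdr (adjusted p 0.119 and 0.241) and Col1a2 (0.755 and 0.123) passed neither test. The part of endothelial cells in the level of Cx3cl1 was not tested. The HSC group has 1 library, so its own spread between samples is unknown and was assumed to match that of the other groups.

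The chromosome 11 ligands Ccl9, Ccl3 and Ccl6, which bind Ccr1 among other receptors and are known from myeloid cells, were lowest in LSK CD150+CD48+ cells or HSC. Ccl9 had 1281 and 1459 counts in BL/6 CMPs, 1802 and 2130 in pMT-10 CMPs, 44 and 43 in the LSK CD150+CD48+ libraries and 24 in the HSC library. Both CMP groups lay far above the others, and the pMT-10 pair lay above the BL/6 pair. The levels were 118 ± 0.289 CPM (SD, n = 2) in BL/6 CMPs, 222.7 ± 33.9 (n = 2) in pMT-10 CMPs, 4.12 ± 1.45 (n = 2) in the LSK CD150+CD48+ libraries and 3.17 in the HSC library (counting interval 2.03 to 4.72). Ccl9 was lower than in pMT-10 CMPs by a log2 fold change of -5.79 ± 0.29 (adjusted p 6.45e-05) in the LSK CD150+CD48+ group and -6.13 ± 0.41 (adjusted p 0.000133) in the HSC. HSC and LSK CD150+CD48+ cells differed by -0.34 ± 0.40 (adjusted p 0.579). In pMT-10 against BL/6 CMPs Ccl9 was higher by 0.92 ± 0.23 (adjusted p 0.0172), but not without BL/6 CMP replicate 1 or 2 (adjusted p 0.138 and 0.12), nor after subtraction of what separates the chips in the LSK CD150+CD48+ and HSC libraries (0.58, adjusted p 0.398).

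Ccl3 had 63 and 92 counts in BL/6 CMPs, 53 and 25 in pMT-10 CMPs, 0 and 1 in the LSK CD150+CD48+ libraries and 28 in the HSC library. The CMP groups overlapped in CPM, the LSK CD150+CD48+ pair was at the floor, and the HSC library lay within the range of the pMT-10 CMPs. Ccl3 was lower in LSK CD150+CD48+ cells than in CMPs (log2 fold change -6.28 ± 0.88, adjusted p 0.00318), where pMT-10 CMPs had 99.0 times the level with a counting interval of 17.2 to 3959. It was higher in HSC than in LSK CD150+CD48+ cells (6.04 ± 0.99, adjusted p 0.00427), a ratio of 83.2 with a counting interval of 13.8 to 3401. Each of these calls was lost without LSK CD150+CD48+ replicate 1 (adjusted p 0.078 and 0.0589) or replicate 2 (0.0654 and 0.0537, with the LSK CD150+CD48+ group then at 0 counts), and the first was -5.69 without pMT-10 CMP replicate 1. HSC and CMPs differed by -0.24 (adjusted p 0.793), and pMT-10 and BL/6 CMPs by -0.60 ± 0.46 (adjusted p 0.352). Ccl6 had 7 and 7 counts in BL/6 CMPs, 16 and 2 in pMT-10 CMPs, 0 and 0 in the LSK CD150+CD48+ libraries and 1 in the HSC library, with 2 unequal pMT-10 CMP libraries, and passed no test on all libraries, with an adjusted p of 0.0672 for LSK CD150+CD48+ cells against CMPs. Leaving out pMT-10 CMP replicate 2 brought that p to 0.00405 and that of HSC against CMPs to 0.0496, and LSK CD150+CD48+ cells against CMPs also passed with no filter (0.0126) and in DESeq2 (0.0442). Ccl4, the neighbour of Ccl3, was silent with at most 5 counts.

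Markers of other myeloid cells were read beside these ligands. The summed level of 10 basophil and mast cell markers, of which 8 reached 10 counts and Mcpt4 was at 0 throughout, was 279 to 469 CPM in pMT-10 CMPs, 61.4 to 65.1 in BL/6 CMPs, 45.2 to 54.7 in the LSK CD150+CD48+ libraries and 10.4 in the HSC library. The summed level of 10 neutrophil markers, of which 7 reached 10 counts, was 22.0 to 24.2 CPM in pMT-10 CMPs, 7.35 to 23.6 in BL/6 CMPs, 1.75 to 13.5 in the LSK CD150+CD48+ libraries and 26.3 in the HSC library. Csf3r made up most of the neutrophil sum in pMT-10 CMPs, and it was lower in HSC by -1.71 (adjusted p 0.0359), whereas Retnlg and Ltf, at 0 counts in those CMPs, had 16 and 14 counts in the HSC (adjusted p 0.0448 and 0.0488). The part of such cells in the levels of Ccl9 and Ccl3 was not tested.

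Ccl5, a ligand of Ccr1 known from T cells and platelets, was uneven between replicates. It had 6 and 11 counts in BL/6 CMPs, 11 and 52 in pMT-10 CMPs, 31 and 35 in the LSK CD150+CD48+ libraries and 54 in the HSC library. In CPM the CMP groups did not overlap, but 1 pMT-10 library carried most of the difference. The levels were 0.721 ± 0.237 CPM (SD, n = 2) in BL/6 and 3.62 ± 3.40 (n = 2) in pMT-10 CMPs. The rise had a log2 fold change of 2.29 ± 0.76 (adjusted p 0.0486), and without pMT-10 CMP replicate 2 it was 0.73 (adjusted p 0.418), whereas without replicate 1 it was 3.03. It was lost as well without BL/6 CMP replicate 1 or 2 (adjusted p 0.242 and 0.147), without LSK CD150+CD48+ replicate 1 or 2 (0.106 and 0.103), with only the CMP groups in the fit (0.102), at a minimum count of 50 (0.0508) and with a replicate block (0.0504). HSC and LSK CD150+CD48+ cells differed by 1.23 ± 0.77 (adjusted p 0.281).

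The remaining CC ligands passed no test on all libraries. The Ccr4 ligand Ccl17 had 21 and 16 counts in BL/6 CMPs, 19 and 52 in pMT-10 CMPs, 27 and 40 in the LSK CD150+CD48+ libraries and 11 in the HSC library, and its difference between the CMP groups, 1.33 ± 0.59 on the log2 scale, had an adjusted p of 0.117. It was 1.90 and passed without pMT-10 CMP replicate 1 (adjusted p 0.0039), and it was 0.38 without replicate 2 (0.614). Ccl25, the Ccr9 ligand known from thymus and gut, ranged from 8 to 36 counts over the 7 libraries. It lies opposite the abundant gene Elavl1, which had 1001 to 2603 counts. Ccl2 had 4 and 1 counts in BL/6 CMPs, 0 and 2 in pMT-10 CMPs, 6 and 8 in the LSK CD150+CD48+ libraries and 11 in the HSC library.

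**Figure D3:**
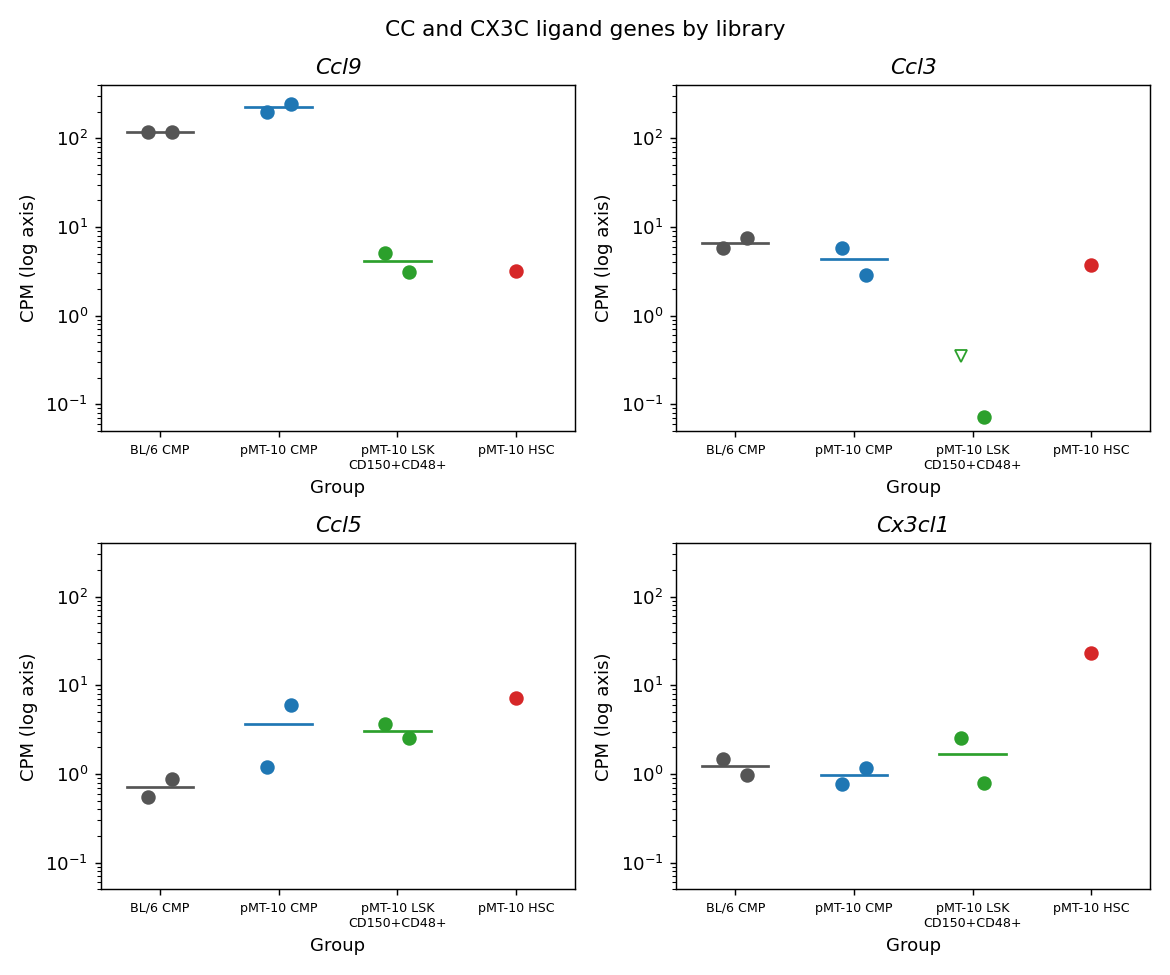
CPM on a log axis of Ccl9, Ccl3, Ccl5 and Cx3cl1 in each library, by group; points are libraries, lines are means of groups whose libraries all had counts, and open triangles mark libraries with 0 counts at the 3-count floor. Ccl9 and Ccl3 drop in LSK CD150+CD48+ cells, where Ccl3 had 0 and 1 counts, and Cx3cl1 peaks in the HSC at 23.2 CPM.

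Among the receptors, Cxcr4 was read at 630 or more counts in every library, and it was lower in HSC than in pMT-10 CMPs. It had 1299 and 1408 counts in BL/6 CMPs, 1223 and 1429 in pMT-10 CMPs, 733 and 1447 in the LSK CD150+CD48+ libraries and 630 in the HSC library. The pMT-10 CMP pair lay highest in CPM and the HSC library lowest. The levels were 116.8 ± 4.38 CPM (SD, n = 2) in BL/6 CMPs, 150.2 ± 21.7 (n = 2) in pMT-10 CMPs, 94.9 ± 13.0 (n = 2) in the LSK CD150+CD48+ libraries and 83.3 in the HSC library (counting interval 76.9 to 90.1). Cxcr4 was lower in HSC than in CMPs by a log2 fold change of -0.85 ± 0.24 (adjusted p 0.0333). This call was lost without LSK CD150+CD48+ replicate 1 or 2 (adjusted p 0.0596 and 0.0588), without BL/6 CMP replicate 1 or 2 (0.0737 and 0.0691) and with only the groups compared in the fit (0.174). The value for LSK CD150+CD48+ cells against CMPs, -0.66 ± 0.19, missed the threshold (adjusted p 0.0544) but passed without pMT-10 CMP replicate 1 or 2 (0.00194 and 0.045), with total counts (0.0489), with no filter (0.0268) and in DESeq2 (0.0284). Between the CMP groups the difference was 0.36 ± 0.19 (adjusted p 0.183). Its ligand Cxcl12, known from marrow stroma, had at most 5 counts in any library.

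Cxcr1 and Cxcr2, neighbouring receptors on chromosome 1 (74153989 to 74194631) for the neutrophil-attracting CXC ligands, differed in opposite directions. Cxcr1 had 25 and 28 counts in BL/6 CMPs, 5 and 1 in pMT-10 CMPs, 27 and 65 in the LSK CD150+CD48+ libraries and 47 in the HSC library. The pMT-10 CMPs lay below every other library. In pMT-10 against BL/6 CMPs Cxcr1 was lower by -2.71 ± 0.69 on the log2 scale (adjusted p 0.0184). Against pMT-10 CMPs it was higher in LSK CD150+CD48+ cells by 3.5 ± 0.67 (adjusted p 0.0126) and in HSC by 4.15 ± 0.73 (adjusted p 0.00504). These values moved to -4.16, 4.96 and 5.61 without pMT-10 CMP replicate 1, which leaves 1 count in that group, and to -2.03, 2.82 and 3.47 without replicate 2, and passed. The first was lost without BL/6 CMP replicate 1 or 2 (adjusted p 0.0948 and 0.0853) and with the chip difference subtracted (-2.06, adjusted p 0.147), and the second without LSK CD150+CD48+ replicate 1 or 2 (0.0912 and 0.127).

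Cxcr2 had 17 and 15 counts in BL/6 CMPs, 28 and 22 in pMT-10 CMPs, 4 and 4 in the LSK CD150+CD48+ libraries and 4 in the HSC library. Both CMP groups lay above the LSK CD150+CD48+ and HSC libraries, and the pMT-10 pair above the BL/6 pair. Cxcr2 was lower in LSK CD150+CD48+ cells than in CMPs by -2.91 ± 0.68 on the log2 scale (adjusted p 0.0271). This was lost without LSK CD150+CD48+ replicate 1 or 2 (adjusted p 0.159 and 0.193) and without BL/6 CMP replicate 1 or 2 (0.0751 and 0.073). The HSC value, -2.39 ± 0.89, missed the threshold (adjusted p 0.0753), as did pMT-10 against BL/6 CMPs at 1.02 ± 0.58 (adjusted p 0.213).

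Cx3cr1, the receptor of Cx3cl1 known from monocytes and macrophages, had 22 and 30 counts in BL/6 CMPs, 13 and 16 in pMT-10 CMPs, 38 and 58 in the LSK CD150+CD48+ libraries and 0 in the HSC library, where its ligand was highest. The 4 groups did not overlap in CPM. With 0 counts set to the floor of 3, HSC was at least 10.8-fold lower than LSK CD150+CD48+ cells (adjusted p 0.00569) and at least 4.14-fold lower than CMPs (adjusted p 0.0136). LSK CD150+CD48+ cells and CMPs differed by 1.38 ± 0.47 on the log2 scale (adjusted p 0.0849, and 0.0476 without pMT-10 CMP replicate 2), and pMT-10 and BL/6 CMPs by -0.44 (adjusted p 0.518). The first call was lost without LSK CD150+CD48+ replicate 1 (adjusted p 0.0529) and the second with only the groups compared in the fit (0.148). Other genes lie within the long annotated span of Cx3cr1, among them Csrnp1, which had 581 counts in the HSC. Ccr2, the Ccl2 receptor of monocytes, had 19 and 14 counts in BL/6 CMPs, 28 and 6 in pMT-10 CMPs, 0 and 5 in the LSK CD150+CD48+ libraries and 5 in the HSC library. Its CMP groups overlapped, at 0.40 ± 0.88 (adjusted p 0.756), and LSK CD150+CD48+ cells against CMPs gave -3.10 ± 1.12 (adjusted p 0.0934), which passed without pMT-10 CMP replicate 2 (0.00574) and with no filter (0.0148).

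**Figure D4:**
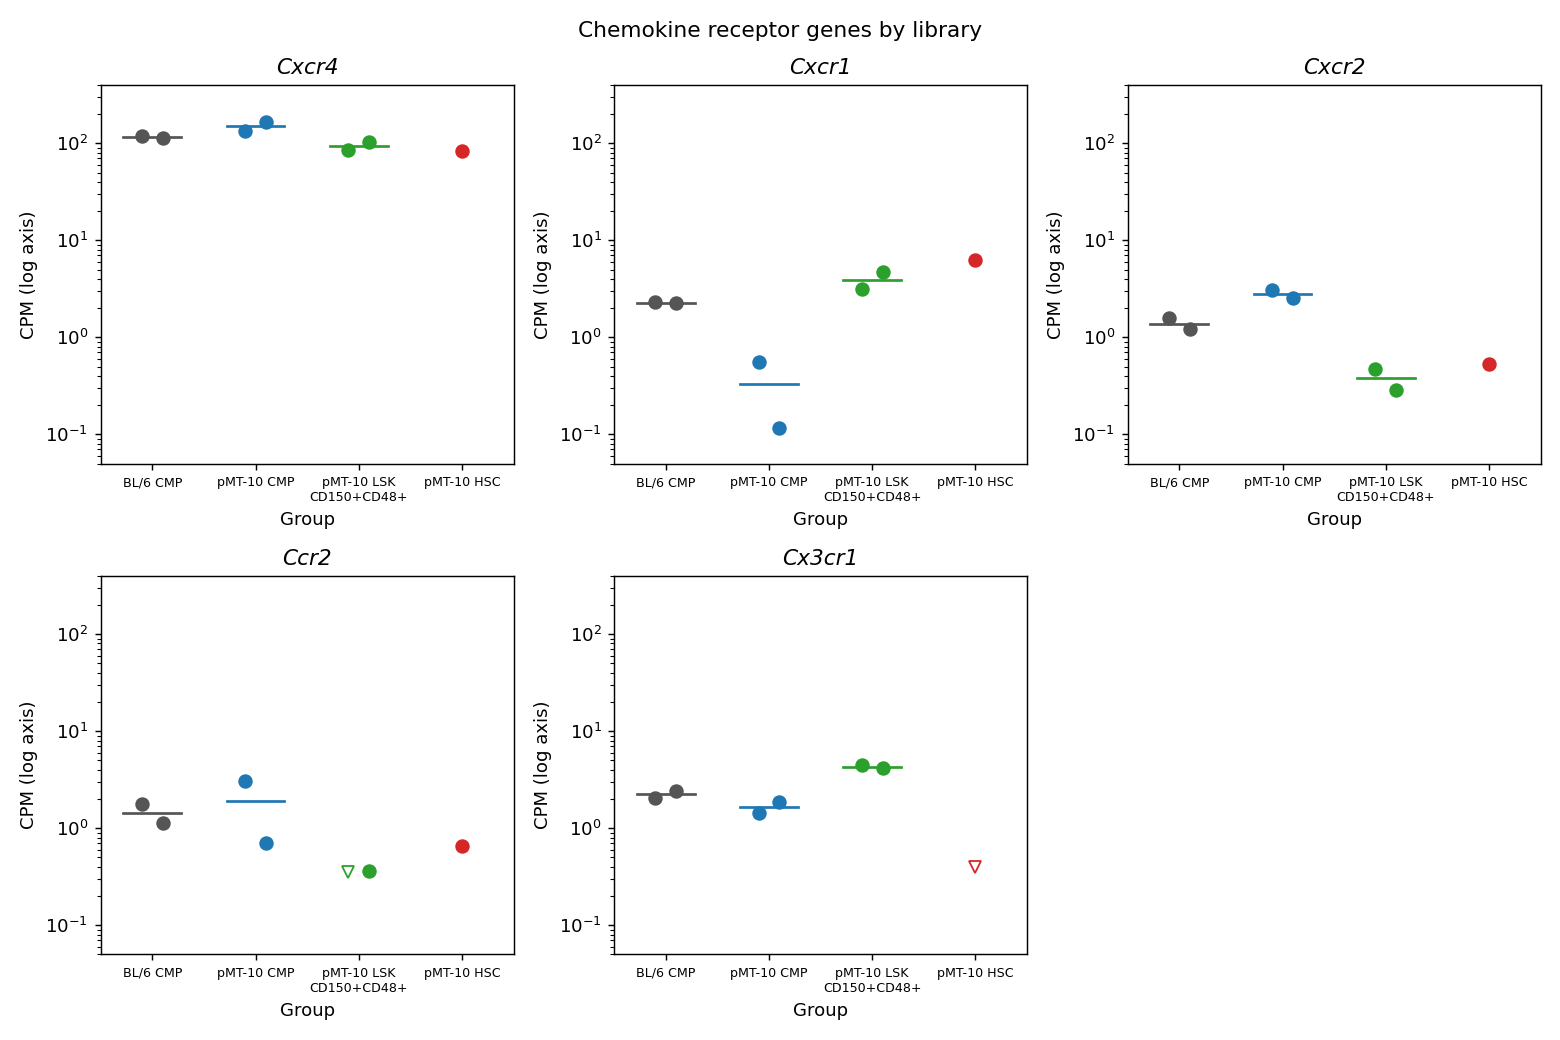
CPM on a log axis of the 5 detected receptors in each library, by group; points are libraries, lines are means of groups whose libraries all had counts, and open triangles mark libraries with 0 counts at the 3-count floor. Cxcr4 runs from 83.3 CPM in the HSC to 165.5 in pMT-10 CMP replicate 2, whereas Cx3cr1 has 0 counts in the HSC.

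Receptors of the ligands that differed were mostly silent. Cxcr3, which binds Cxcl9, Cxcl10 and Cxcl11, had 0 and 1 counts in BL/6 CMPs, 4 and 5 in pMT-10 CMPs, and 0 in the LSK CD150+CD48+ and HSC libraries, in which those ligands were highest. Ccr1, a receptor of Ccl3, Ccl5, Ccl6 and Ccl9, had at most 7 counts. These counts are too low for a comparison between groups.

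**Figure D5:**
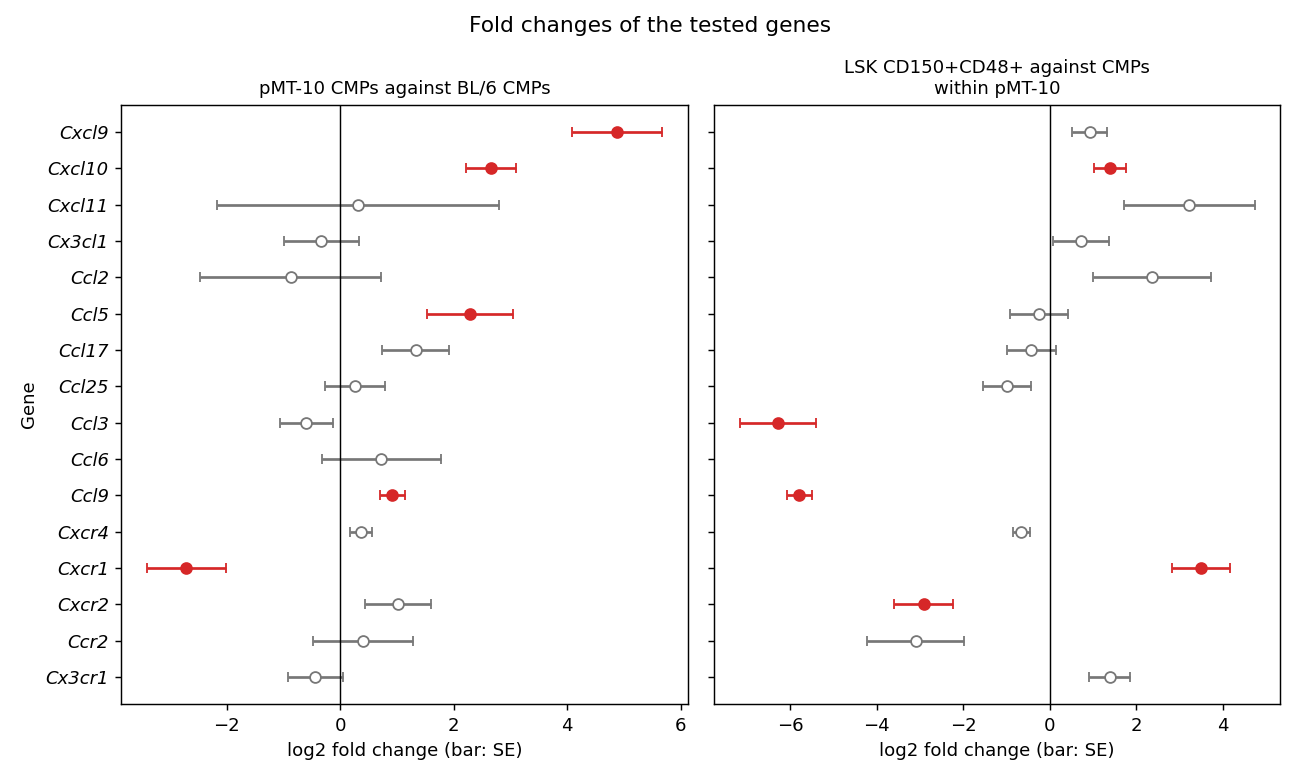
Log2 fold changes (points) and standard errors (bars) of the detected genes in pMT-10 against BL/6 CMPs (left) and in LSK CD150+CD48+ cells against pMT-10 CMPs (right), from the edgeR fit of all 7 libraries; filled red points passed an adjusted p under 0.05, and Ccl6 is left out on the right because 1 group had 0 counts. On the left Cxcl9 lies furthest right at 4.88 and Cxcr1 furthest left at -2.71, and on the right Ccl3 (-6.28) and Ccl9 (-5.79) lie furthest left.

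Of 10 chemokine genes listed under other symbols 3 were measured. Pf4 (Cxcl4), made by megakaryocytes and platelets, had 663 and 883 counts in BL/6 CMPs, 1192 and 1944 in pMT-10 CMPs, 850 and 1521 in the LSK CD150+CD48+ libraries and 4918 in the HSC library. The pMT-10 CMPs lay above the BL/6 pair in CPM and the HSC library above all others. Pf4 rose in pMT-10 against BL/6 CMPs by 1.43 ± 0.25 on the log2 scale (adjusted p 0.00495) and in HSC against LSK CD150+CD48+ cells by 2.64 ± 0.29 (adjusted p 0.00121) and CMPs by 1.87 ± 0.29 (adjusted p 0.00304). The first was lost without BL/6 CMP replicate 1 (1.32, adjusted p 0.0592). The LSK CD150+CD48+ value against CMPs, -0.77 ± 0.25, missed the threshold (adjusted p 0.0742) but passed without pMT-10 CMP replicate 1 (-1.11, 9.27e-05), with no filter (0.00501) and in DESeq2 (0.0414). Ppbp (Cxcl7), another platelet chemokine, had 17 and 18 counts in BL/6 CMPs, 25 and 117 in pMT-10 CMPs, 13 and 16 in the LSK CD150+CD48+ libraries and 48 in the HSC library. It was higher in pMT-10 than in BL/6 CMPs (2.42 ± 0.68, adjusted p 0.0282) and lower in LSK CD150+CD48+ cells than in CMPs (-2.62 ± 0.70, adjusted p 0.0415), with the 2 pMT-10 CMP libraries far apart. Without pMT-10 CMP replicate 2 these values were 0.86 (adjusted p 0.208) and -1.07 (0.166), and without replicate 1 they were 3.16 and -3.36. Both calls were lost as well without any 1 of the LSK CD150+CD48+ or BL/6 CMP libraries (the lowest adjusted p was 0.0745 and 0.082) and with only the groups compared in the fit (0.0711 and 0.0854), and the second with a replicate block (0.0513). Both genes lie within the chromosome 5 cluster of Cxcl1, Cxcl2, Cxcl3, Cxcl5 and Cxcl15, where only the members taken by symbol were silent. The sum of 10 megakaryocyte and platelet markers, of which 9 reached 10 counts, was 512 to 728 CPM in pMT-10 CMPs, 307 to 317 in BL/6 CMPs, 655 to 754 in the LSK CD150+CD48+ libraries and 2044 in the HSC library. Between the CMP groups the members of that list went both ways, with Itga2b, the most abundant, higher by 1.29 (adjusted p 0.00424), Treml1 lower by -1.33 (adjusted p 0.0194) and a median log2 fold change of 0.02. The part of such cells in the levels of Pf4 and Ppbp was not tested.

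Of the genes that act below chemokine receptors, such as G proteins, arrestins, RGS proteins and PI3-kinase subunits, some passed in each direction. Of 46 listed genes 41 were tested. In pMT-10 against BL/6 CMPs 5 were higher and 9 lower, where 14.3% and 13.7% of all genes tested were, among them Plcb3, a phospholipase C (1.64), Pik3cd, a kinase subunit (1.32), and the GTPase Cdc42 (-0.92 on the log2 scale). The calls of Pik3cd (0.12) and Cdc42 (-0.02) were lost with the chip difference subtracted, and that of Cdc42 without BL/6 CMP replicate 1 (adjusted p 0.0932). In LSK CD150+CD48+ cells against CMPs 6 were higher and 2 lower (5.92% and 5.92% of all genes), with the arrestin Arrb2 at 2.27, Rhoh at 1.37 and Rgs2, which speeds the shutdown of G proteins, at -1.41. Without LSK CD150+CD48+ replicate 1 or 2, Rhoh (adjusted p 0.131 and 0.0738) and Rgs2 (0.121 and 0.0738) did not pass. In HSC against LSK CD150+CD48+ cells 7 were higher and 5 lower (10.6% and 8.15% of all genes), with Rgs1 at 2.31 and Rgs2 at 1.71, while Cmklr1, a chemerin receptor, fell to 0 counts. Rgs1 (adjusted p 0.0655), Rgs2 (0.0667) and Cmklr1 (0.069) did not pass without LSK CD150+CD48+ replicate 1, nor Cmklr1 without replicate 2 (0.0655). In HSC against CMPs 8 were higher and 4 lower (13.8% and 11.7% of all genes), with Rgs1 at 2.71, Rgs18 at 1.31 and Rgs19 at 1.18, the last not passing with only the groups compared in the fit (adjusted p 0.0621). The median log2 fold changes of the 41 genes in these 4 comparisons were 0.02, 0.30, -0.17 and 0.25, beside 0.01, -0.01, 0.03 and 0.02 over all genes tested.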

How the data were processed

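RNA of sorted cells had been made into libraries with the Ion AmpliSeq mouse transcriptome kit, per the labels' protocols. The values are raw read counts per gene as deposited by the authors, 1 table for each of 2 chips; reads had been placed on mm10, as the submitters' processing notes name it. How reads were aligned and counted, and whether by strand, is not given in the sources used here. The kit adds no molecular identifiers, so intervals and floors reflect counting error alone. Table columns were matched to samples by chip and barcode.

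The test was that of edgeR 4.0.16 in R 4.3.3: filterByExpr with a minimum count of 10 (11429 genes left), TMM scaling, 1 fit of all 7 libraries with 4 group means (3 residual degrees of freedom), and the robust quasi-likelihood F-test. P-values were adjusted over all tested genes by the Benjamini-Hochberg method, and each adjusted p in the text comes from this test unless DESeq2 1.42.0 is named. CPM use TMM-scaled totals. Gene positions are from GENCODE M21 (mm10), promoters from RefSeq GRCm38.p6, searched over 250 bases. Figures were drawn with matplotlib 3.10.9.

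Every member with 10 or more counts in a library is named with its values; of the signalling list, up to 3 called genes with the smallest p per comparison are named. The values of 1 silent member are not reported here. Members and lists were chosen with earlier results of these data known. Alternatives were other scalings, filters, fits and tests, a chip subtraction (LSK CD150+CD48+ minus HSC, which is also a difference of cell population), and each library left out. Pf4, Ppbp, the named signalling genes and genes at 0 counts in a group were put through the same settings.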

Additional observations from a re-analysis of the deposited data

How the results depend on the processing

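The number of detected genes called moved by over 1.5 times in many settings, mostly those with 1 library left out. With no filter 9 were called in LSK CD150+CD48+ cells against CMPs in place of 5, and with only the groups compared in the fit 5 were called in HSC against CMPs in place of 8. With 1 library left out the counts ran from 2 to 8 in pMT-10 against BL/6 CMPs (8 without pMT-10 CMP replicate 1, 2 without either BL/6 CMP library), from 1 to 10 in LSK CD150+CD48+ cells against CMPs (10 without pMT-10 CMP replicate 2, 1 without either LSK CD150+CD48+ library, 3 without either BL/6 CMP library), from 2 to 6 in HSC against LSK CD150+CD48+ cells (2 without LSK CD150+CD48+ replicate 1, 3 without replicate 2) and from 6 to 12 in HSC against CMPs. Silent genes numbered 30 at fewer than 5 counts and 40 at fewer than 20.

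No called gene changed direction in any setting run. With the chip difference subtracted, 3 genes that had not passed in pMT-10 against BL/6 CMPs changed direction, to log2 values of 3.52 for Cx3cl1, 5.44 for Ccl3 and 0.32 for Ccl2. Leaving out 1 library turned the direction of genes that had not passed: between the CMP groups Ccr2 ran from -1.03 to 1.10, Ccl2 from -4.25 to 0.43, Ccl25 from -0.0677 to 0.52 and Cxcl11 from -2.20 to 2.47. The lowest values of Ccl2 and Cxcl11, and the highest of Cxcl11, are fitted against a group left at 0 counts and are no measure of size. In LSK CD150+CD48+ cells against CMPs, Ccl5 ran from -1.0 to 1.30, Ccl17 from -1.0 to 0.52 and Cx3cl1 from -0.28 to 1.40. In HSC against LSK CD150+CD48+ cells, Ccl9 ran from -0.69 to 0.0373 and Ccl25 from -0.22 to 0.98, and in HSC against CMPs, Ccl3 ran from -0.66 to 0.35. The cause was not tested.

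With a replicate block, 4, 5, 5 and 7 genes were called in the 4 comparisons. Libraries with the same number did not deviate together (correlations of -0.0195, -0.0192 and -0.0764 over 11429 genes), so the numbers were not taken as a pairing. Counts under 10 limit Cxcl11, Ccl2 and Ccl6. They also limit calls of other members that rest on a group wholly under 10 counts. These groups are BL/6 CMPs for Cxcl9 (2 and 0) and pMT-10 CMPs for Cxcr1 (5 and 1). They are also LSK CD150+CD48+ cells for Cxcr2 (4 and 4) and Ccl3 (0 and 1), and the HSC for Cx3cr1 (0).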
